A study of Rattus norvegicus with 9 samples.

Results

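The megakaryocyte and platelet genes Pf4, Ppbp, Itga2b, Gp9, Gp5, Treml1, Tubb1 and Nfe2 were examined in rat bone. They were chosen by name, as genes that mark the megakaryocyte lineage. All 8 were found among the 23026 genes of the table, and all 8 were among the 16874 genes that had enough reads to be tested. The libraries came from female Sprague-Dawley rats that were 8 weeks old at purchase, and 3 rats of each group were sequenced. Sham rats had a piece of fat next to the ovary removed and received the vehicle sodium carboxymethyl cellulose (CMC-Na). OVX rats had both ovaries removed, the rat model of postmenopausal osteoporosis (PMOP), and received the same vehicle. OVX-AS-IV-High rats had the same operation and received astragaloside IV (AS-IV), a saponin of the herb Astragalus membranaceus, at 80 mg/kg in that vehicle. Gavage was given daily for 8 weeks and started 6 weeks after surgery in every group. The labels give CMC-Na as 1%, 2% and 3% for Sham replicates 1, 2 and 3 and as 1% for OVX, whereas the methods give a single strength. The tissue is labelled bone and a frozen femur was used, and nothing states whether the marrow was flushed out.

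Megakaryocytes are very large marrow cells that sit against the sinusoids and shed platelets into the blood through long proplatelet extensions. In the platelet, surface glycoproteins bind injured vessel wall and clotting proteins, alpha granules release chemokines and growth factors, and a ring of microtubules holds the disc shape. In bone, megakaryocytes are also known as a source of factors that act on osteoblasts and on stem cells. Pf4 and Ppbp encode CXC chemokines of the alpha granule. Itga2b encodes the alpha subunit of the fibrinogen receptor. Gp9 and Gp5 encode subunits of the von Willebrand factor receptor complex. Treml1 encodes a receptor held in alpha granules that reaches the surface on activation, Tubb1 the beta tubulin of the marginal band, and Nfe2 the large subunit of a transcription factor needed for platelet release.

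The upstream sequences are shown because most of these genes varied together across libraries, as described further on. RefSeq start sites (assembly GRCr8, which is not the mRatBN7.2 build named in the submitters' notes) gave the 250 bases before the start for 6 of the 8 genes. Pf4 and Nfe2 had no entry. Each was searched on both strands for letters bound by 3 factor families of this lineage: AGATAA or TGATAA for GATA factors, AGGAAG or CGGAAG for ETS factors, and TGAGTCA for the NF-E2 core. Matches are in capitals, and letters found on the other strand appear as their reverse complement.
Itga2b, chr10:87925834-87926083, minus strand: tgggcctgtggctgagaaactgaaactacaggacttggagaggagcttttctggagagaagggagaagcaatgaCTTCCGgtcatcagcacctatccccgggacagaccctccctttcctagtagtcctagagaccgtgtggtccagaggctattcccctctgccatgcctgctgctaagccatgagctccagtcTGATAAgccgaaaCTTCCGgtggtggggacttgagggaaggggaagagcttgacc
Gp5, chr11:83948257-83948506, plus strand: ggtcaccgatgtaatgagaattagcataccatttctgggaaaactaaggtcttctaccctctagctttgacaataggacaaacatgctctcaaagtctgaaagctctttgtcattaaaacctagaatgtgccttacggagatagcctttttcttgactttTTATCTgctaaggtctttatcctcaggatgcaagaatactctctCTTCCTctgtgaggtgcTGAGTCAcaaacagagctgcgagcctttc
Tubb1, chr3:183665939-183666188, plus strand: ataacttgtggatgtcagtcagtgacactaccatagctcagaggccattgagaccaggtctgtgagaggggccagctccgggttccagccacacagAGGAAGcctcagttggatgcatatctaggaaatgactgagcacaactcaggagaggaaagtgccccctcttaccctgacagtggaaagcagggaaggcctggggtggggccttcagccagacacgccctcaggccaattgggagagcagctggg
Treml1, chr9:20139934-20140183, minus strand: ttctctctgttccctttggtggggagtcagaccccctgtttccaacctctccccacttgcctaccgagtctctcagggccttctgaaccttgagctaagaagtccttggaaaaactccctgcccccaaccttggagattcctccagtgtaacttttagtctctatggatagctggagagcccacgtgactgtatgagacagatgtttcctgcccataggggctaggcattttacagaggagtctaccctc

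GATA letters were present in 2 of the 6 sequences, Itga2b at position -55 and Gp5 at position -90 from the start site, against 16.6% of 27457 RefSeq promoters of the same length. ETS letters were present in 4 of the 6 (Itga2b, Gp9, Gp5 and Tubb1) against 39.8% of promoters. The NF-E2 core was present in 1, Gp5 at position -29, against 3.98% of promoters. GATA and ETS letters occurred together in Itga2b and Gp5, against 5.83% of promoters. Over the 13374 promoters of genes tested here, the shares were 10.5% for GATA, 46.5% for ETS, 3.43% for the NF-E2 core and 4.71% for GATA with ETS. Ppbp and Treml1 held none of these letters in this window. A match of letters is a description of the sequence and does not show that a factor binds there.

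All 8 marker genes were readily measured in the samples labelled bone. Levels between genes are compared as FPKM, fragments scaled by transcript length and by library depth. Pf4 led with a mean of 620.4 FPKM over the 9 libraries, which ranked it 122nd among all genes in the table. Ppbp followed at 344 FPKM (rank 194), and its range over the libraries lay wholly above that of the next gene. Tubb1 (76.7 FPKM), Itga2b (74.1), Nfe2 (74.1), Gp9 (57.9) and Treml1 (56.9) had ranges that overlapped from one to the next. Gp5 was lowest at 31.8 FPKM, rank 2365, although its range still overlapped that of Treml1. Pf4 was above Ppbp, and Treml1 above Gp5, within each of the 9 libraries. The order of Tubb1, Itga2b and Nfe2 changed between libraries, since Tubb1 was above Itga2b in 5 of 9 and Itga2b above Nfe2 in 3 of 9.

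The following values are CPM, read counts scaled to a common library size and adjusted for library composition, which compare libraries but not genes. In bulk tissue, fewer megakaryocytes and less RNA per megakaryocyte cannot be told apart. The depth was similar throughout, from 34874880 to 37298250 counts per library, and each of the 8 genes had at least 1297 counts in each library.

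Pf4 was measured at 411.3, 489.7 and 256.9 CPM in the Sham libraries. The OVX libraries gave 405.9, 240.0 and 254.8 CPM. With AS-IV the values were 318.0, 257.8 and 294.6 CPM. Both ovariectomized groups lay within or just below the Sham range, and Sham replicate 2 was the highest library. Ppbp, the neighbour of Pf4 on chromosome 14, had another pattern. Its Sham values were 81.5, 171.6 and 107.9 CPM. Its OVX values were 202.8, 109.6 and 109.3 CPM, and those with AS-IV were 94.8, 108.0 and 105.7 CPM. The highest Ppbp library was OVX replicate 1 and the lowest was Sham replicate 1, a library in which Pf4 was the second highest of the 9. The 3 treated libraries lay below the 3 OVX libraries for Ppbp, with 108.0 CPM as the highest treated value and 109.3 CPM as the lowest untreated one.

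The adhesion receptors were next. Itga2b measured 324.5, 432.5 and 230.5 CPM for Sham, then 334.8, 224.0 and 223.4 CPM for OVX, then 277.3, 198.3 and 223.1 CPM for OVX-AS-IV-High. The Gp9 values, in the same order of groups, were 56.2, 72.0 and 39.5 CPM, then 61.8, 47.5 and 39.4 CPM, then 47.6, 35.1 and 41.3 CPM. For Gp5 they were 64.6, 104.6 and 54.5 CPM, then 100.1, 58.7 and 65.1 CPM, then 73.3, 57.6 and 57.1 CPM. For all 3 receptors Sham replicate 2 was highest, OVX replicate 1 stood above the other OVX libraries, and the 3 groups overlapped.

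Treml1 measured 72.5, 91.1 and 54.6 CPM for Sham, then 106.7, 65.0 and 57.6 CPM for OVX, then 83.6, 51.4 and 57.5 CPM for OVX-AS-IV-High. The Tubb1 values in this order were 314.5, 366.0 and 188.4 CPM, then 288.2, 181.4 and 170.1 CPM, then 241.7, 163.0 and 176.1 CPM. These 2 genes differed in which library led, OVX replicate 1 for Treml1 and Sham replicate 2 for Tubb1, and the groups overlapped for both. For Nfe2 the values were 216.2, 250.7 and 226.6 CPM, then 235.1, 183.4 and 196.6 CPM, then 244.8, 207.2 and 229.7 CPM. Nfe2, the transcription factor, was the most even of the 8, with a coefficient of variation of 10.1% against 24.9% to 32.4% for the other 7.

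**Figure D1:**
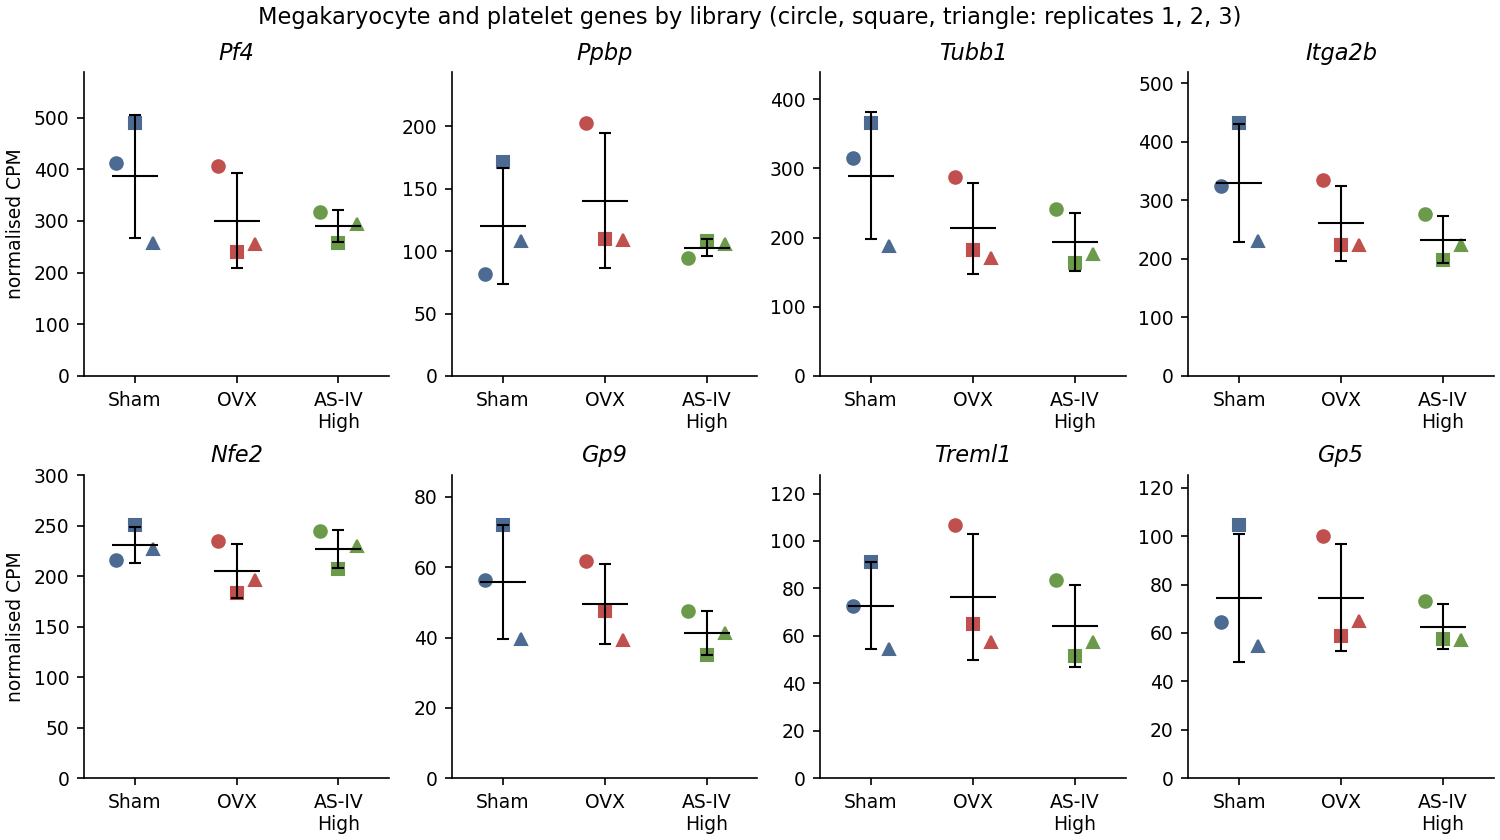
Normalised CPM (vertical axes, each from 0) of the 8 genes in the 9 libraries, by group; circle, square and triangle are replicates 1, 2 and 3, and the bar with whiskers is the mean and SD of 3 libraries. Sham replicate 2 and OVX replicate 1 stand high in most panels, and the groups overlap except for Ppbp between OVX and OVX-AS-IV-High.

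The comparison of OVX with Sham addresses what loss of the ovaries did to the bone transcriptome. No member passed the call rule of unadjusted p under 0.05 and a change of more than 2-fold, which 3.11% of all tested genes passed. None had an unadjusted p under 0.05 by edgeR's quasi-likelihood test, DESeq2 or limma, against 16.4% of all genes by edgeR, and none separated the groups, against 23.3% of all genes. Of the 8 genes 5 were lower in OVX and 3 were higher, and the median log2 fold change was -0.17 against -0.0062 for all genes (50.8% of all genes were lower). Tubb1 had the lowest value, 213 ± 65.1 CPM for OVX against 289.6 ± 91.4 CPM for Sham (SD, n = 3 each). Its log2 fold change was -0.44 (SE 0.28, edgeR adjusted p = 0.433). Pf4 followed at -0.36 (SE 0.26) and Itga2b at -0.34 (SE 0.25), with edgeR adjusted p of 0.482 and 0.494. Gp5 was at 0.0017 (SE 0.27), with a 95% interval from -0.60 to 0.60. The highest value was that of Ppbp, 0.22 (SE 0.30, interval -0.45 to 0.90).

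The 95% interval lay within a 2-fold change in either direction for 7 of the 8 genes, the exception being Tubb1 with an interval from -1.07 to 0.19. These intervals leave room for changes of moderate size, and the absence of a call does not show equal levels. Leaving out Sham replicate 3 gave an unadjusted p under 0.05 for Itga2b, Pf4 and Tubb1, and leaving out OVX replicate 1 gave one for Nfe2, Pf4 and Tubb1, all lower in OVX. Leaving out Sham replicate 2 moved the values the other way, to -0.083 for Itga2b, -0.15 for Pf4 and -0.23 for Tubb1. Called genes over the whole table rose from 525 to 1064 without Sham replicate 3, so more genes passed there in general. The direction of Ppbp, Gp5 and Treml1 turned without OVX replicate 1 (log2 fold changes -0.14, -0.27 and -0.24), and Gp9 turned to 0.058 without Sham replicate 2.

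The comparison of OVX-AS-IV-High with OVX addresses the effect of the compound, and it uses the same 3 OVX libraries as the comparison above. Here too 0 of the 8 genes were called, against 0.83% of all genes, and 0 had an unadjusted p under 0.05 by edgeR, DESeq2 or limma, against 6.45% of all genes by edgeR. The median log2 fold change was -0.21 against -0.016 for all genes, with 7 of 8 genes lower where 53.3% of all genes were. Ppbp was the lowest, 103 ± 7.06 CPM in OVX-AS-IV-High against 140.5 ± 53.9 CPM in OVX (SD, n = 3 each). Its log2 fold change was -0.45 (SE 0.30, interval -1.12 to 0.22, edgeR adjusted p = 0.907). It was 1 of 8 members whose groups did not overlap, where 12.7% of all genes did not, and the exact two-sided permutation p was 0.1, the smallest that 3 against 3 allows. Nfe2 was the single gene on the higher side, with a log2 fold change of 0.15 (SE 0.12, interval -0.12 to 0.42, edgeR adjusted p = 0.926). The values of the other 6 lay between -0.26 (Gp9) and -0.049 (Pf4).

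OVX replicate 1 was the highest OVX library for each of the 8 genes. Without it the log2 fold changes were 0.23 for Pf4, 0.058 for Itga2b, 0.016 for Gp5, 0.065 for Treml1 and 0.14 for Tubb1, and 2 of the 8 genes remained lower, Ppbp at -0.090 and Gp9 at -0.073. Without OVX-AS-IV-High replicate 2 that of Pf4 was 0.027. No pairing of the libraries is stated, so matching them by replicate number is a description only. If the numbers do pair them, leaving out 1 library breaks its pair. Compared within the 3 pairs, Ppbp, Itga2b, Gp5 and Treml1 were lower with AS-IV each time and Nfe2 was higher each time, whereas 16.6% of all genes were lower in all 3 pairs and 14.4% higher. Some of these gaps were narrow, since in the third pair Itga2b was 223.1 against 223.4 CPM and Treml1 57.5 against 57.6 CPM. Gp9 and Tubb1 were lower in 2 of 3 pairs and Pf4 in 1. With the replicate number as a block, 0 of the 8 genes had an unadjusted p under 0.05 by edgeR.

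The comparison of OVX-AS-IV-High with Sham shares libraries with both comparisons above and is not independent of them. All 8 genes were lower, where 51.6% of all genes were, although genes that vary together are not 8 independent counts, and 0 were called, against 3.15% of all genes. By edgeR 0 had an unadjusted p under 0.05, against 17.6% of all genes, by limma 0, and by DESeq2 1, Tubb1. Tubb1 was 194 ± 42.1 CPM in OVX-AS-IV-High against 289.6 ± 91.4 CPM in Sham (SD, n = 3 each). Its log2 fold change was -0.58 (SE 0.28, interval -1.21 to 0.050, edgeR unadjusted p = 0.0672 and adjusted p = 0.317). Itga2b was at -0.50 (SE 0.25, edgeR adjusted p = 0.327) and Gp9 at -0.44 (SE 0.23, edgeR adjusted p = 0.364). Nfe2 was nearest to 0 at -0.025 (SE 0.12, interval -0.29 to 0.24). The groups overlapped for all 8 genes, where 19.9% of all genes did not. Without Sham replicate 3 the number with an unadjusted p under 0.05 was 4 (Gp9, Itga2b, Pf4 and Tubb1). Omitting OVX-AS-IV-High replicate 1 gave 2 (Itga2b and Tubb1), and omitting OVX replicate 1 gave 1 (Tubb1). The first of these fits called 862 genes of the whole table and the second 940, where the main fit called 531. More genes of any kind were thus called in both. Without Sham replicate 2 the values of Tubb1, Itga2b and Gp9 were -0.37, -0.25 and -0.21. In the same fit those of Ppbp, Gp5, Treml1 and Nfe2 were above 0, at 0.13, 0.080, 0.021 and 0.045.

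**Figure D2:**
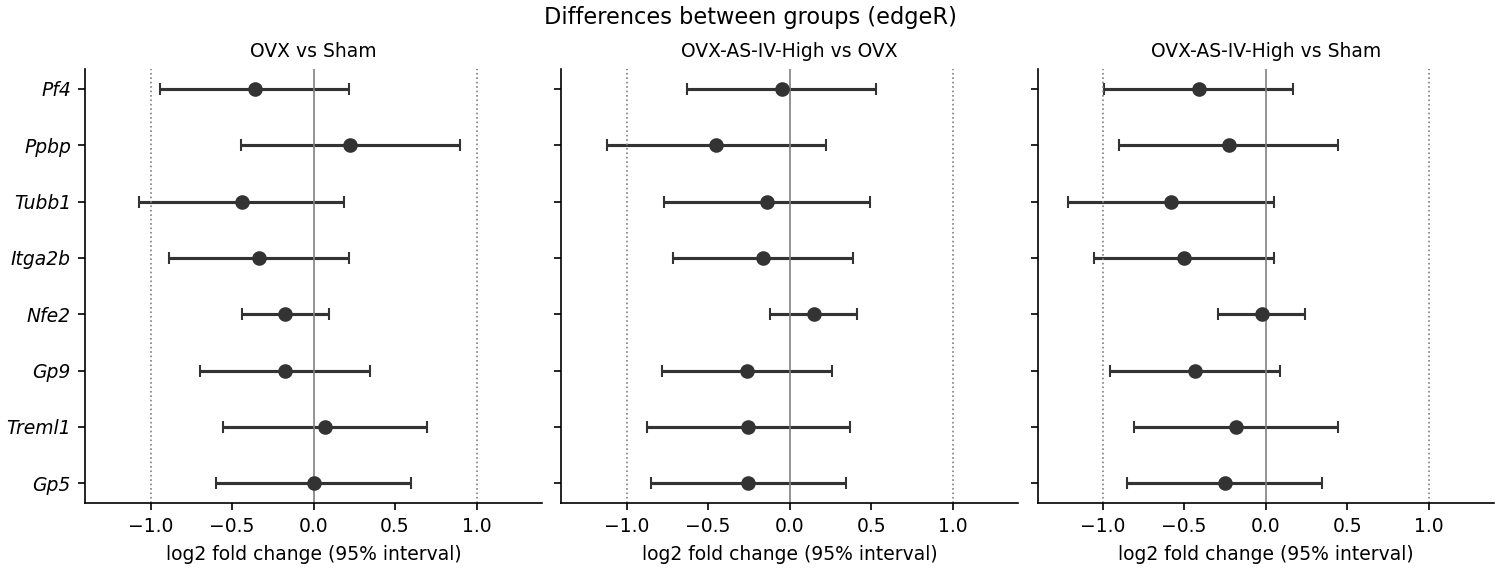
Log2 fold change (horizontal axis) with its 95% interval for each of the 8 genes in the 3 comparisons, from edgeR with 3 libraries a group; dotted lines mark a 2-fold change. The interval of each gene includes 0 in each comparison, and that of Nfe2 is the narrowest.

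The genes varied more between rats of 1 group than genes generally did. The SD of log2 CPM within groups had a median of 0.381 over the 8 members, against 0.235 over all genes tested and 0.151 over the 4650 genes with a mean CPM at least that of the lowest member. The share of variance lying between groups had a median of 24.9% in the members and 32.9% over all genes tested. Nfe2 was the least spread member, at 0.142, and Ppbp the most, at 0.435.

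Much of this spread was shared. Pf4, Itga2b, Gp9, Gp5, Treml1 and Tubb1 followed each other across the 9 libraries, with Pearson r from 0.80 to 0.98 over their 15 pairs (median 0.89) and Spearman correlations from 0.58 to 0.97. After the group means were removed r ranged from 0.88 to 0.98. Itga2b and Tubb1, the fibrinogen receptor subunit and the platelet tubulin, were the closest pair (r = 0.98, Spearman correlation 0.97). These values describe 9 libraries that all genes share, and are given without a test. All 8 members were above their own mean in Sham replicate 2 and in OVX replicate 1, and all 8 were below it in OVX replicates 2 and 3 and in OVX-AS-IV-High replicate 2. The mean of the standardised log2 values was 1.55 SD in Sham replicate 2 and 1.21 SD in OVX replicate 1. In the other 7 libraries it lay between -0.87 and 0.27 SD. Libraries with high platelet genes thus occurred in both untreated groups and none of the 3 groups was uniformly high or low.

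Nfe2 and Ppbp followed the others less closely. The r of Nfe2 with the other 7 ranged from 0.37 to 0.69. The r of Ppbp with the 6 closely linked genes ranged from 0.41 to 0.79, and it rested on the 2 high libraries: without Sham replicate 2 and OVX replicate 1 it ranged from -0.97 to -0.54 over 7 libraries. The r among the 6 linked genes then ranged from 0.48 to 0.99. Over these 7 libraries Ppbp stood at -1.25 SD in Sham replicate 1 and -0.72 SD in OVX-AS-IV-High replicate 1. In the rest it lay between -0.34 and -0.21 SD, so its variation there was mostly that of those low libraries.

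**Figure D3:**
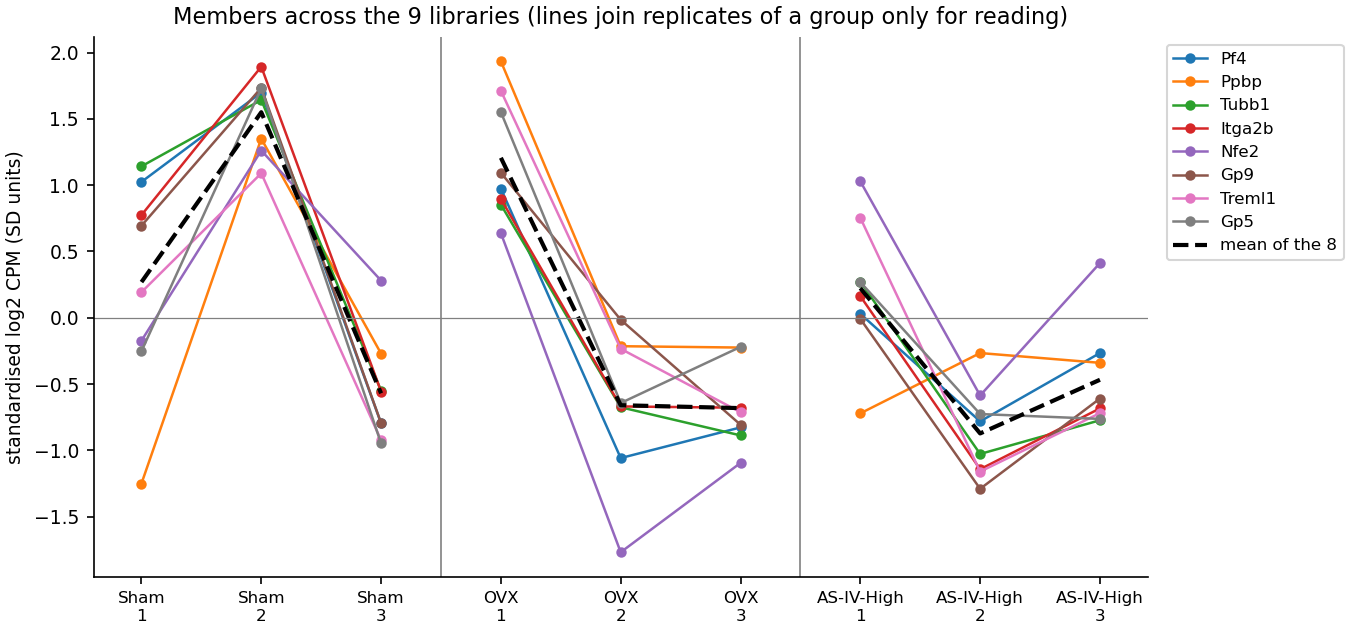
Log2 CPM of each gene, standardised over the 9 libraries (vertical axis, in SD units), for the 3 replicates of each group (horizontal axis); the dashed black line is the mean of the 8 genes, and lines join replicates for reading alone. Sham replicate 2 (1.55) and OVX replicate 1 (1.21) are the peaks, and Ppbp departs from the others in Sham replicate 1.

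Ratios of members within a library do not depend on how libraries are scaled, and they were examined for all 28 pairs after the levels had been seen. The ratio separated OVX from Sham in 11 of 28 pairs, where 21.1% of all gene pairs in the table were separated. It separated OVX-AS-IV-High from OVX in 7 pairs (11.3% of all gene pairs) and OVX-AS-IV-High from Sham in 5 (18.7%). The 28 ratios are built from 8 genes and are not independent of each other. The ratio of Tubb1 to Treml1 FPKM was 1.79, 1.66 and 1.43 for Sham. For OVX it was 1.12, 1.15 and 1.22, and with AS-IV it was 1.19, 1.31 and 1.27. Both ovariectomized groups lay wholly below Sham. The mean log2 ratio was 0.22 ± 0.065 for OVX and 0.70 ± 0.17 for Sham (SD, n = 3 each), a difference of -0.48, which stayed between -0.57 and -0.41 with any 1 library left out. The ratio of Itga2b to Treml1 showed the same order, at 1.51, 1.61 and 1.43 in Sham and 1.06, 1.16 and 1.31 in OVX. These ratios were picked because they separated the groups, so their values are a description with no test.

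The ratio of Pf4 to Ppbp, the neighbouring chemokine genes, was 3.39, 1.92 and 1.60 in Sham. OVX gave 1.34, 1.47 and 1.57, and the AS-IV group gave 2.25, 1.60 and 1.87. OVX lay below both other groups, by a log2 difference of -0.58 from Sham and with OVX-AS-IV-High 0.38 above OVX. The gaps were small, 1.57 against 1.60 in each case, and Sham replicate 1 stood far above the rest. Without that library the difference from Sham was -0.26.

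**Figure D4:**
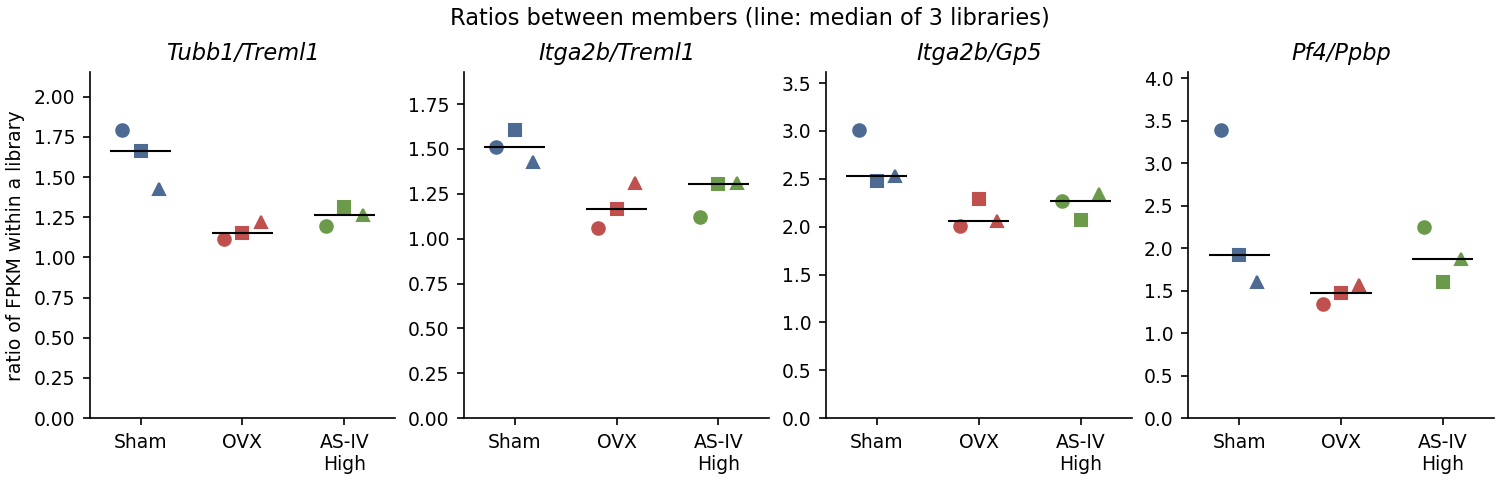
Ratio of FPKM within each library (vertical axes from 0) for 4 pairs of members, by group; circle, square and triangle are replicates 1, 2 and 3 and the line is the median of 3. The 3 OVX libraries lie below the 3 Sham libraries in all 4 panels, closely so for Pf4/Ppbp.

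Genes whose pattern was most like the members were sought among 14471 other genes with a mean of at least 1 CPM, by the r of log2 CPM with the mean of the standardised members. The 5 most alike were Clec1b (r = 0.97), Vwf (0.96), Kalrn (0.95), Pde5a (0.95) and Pde3a (0.95), where the median gene was at -0.032. Clec1b encodes the platelet receptor for podoplanin, and Vwf the adhesive ligand stored in alpha granules and in endothelium. Pde5a and Pde3a encode phosphodiesterases that break down cyclic nucleotides. Without the 2 high libraries r was still between 0.81 (Kalrn) and 0.92 (Vwf) over 7 libraries. Among listed genes, Myl9 (0.92), Alox12 (0.92), Fermt3 (0.91), P2rx1 (0.91), Gp1ba (0.90) and Meis1 (0.90) also ranked within the 30 most alike. The 100 most alike of the 14471 genes were looked up in the lists described below. They held 2 of 11 surface receptor, 1 of 14 granule and 1 of 12 transcription factor genes. They also held 2 of 12 cytoskeletal, 2 of 14 signalling and 0 of 7 growth signal genes. In that order the median r was 0.63, 0.46, 0.47, 0.59, 0.65 and -0.23, and the lowest single value was -0.82 (Serpine2).

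Other genes of the lineage were counted in 6 lists, against 8.28% of all genes lower and 8.16% higher at an unadjusted p under 0.05 between OVX and Sham. The transcription factor list stood out by its count. Of its 12 genes 5 were lower in OVX and 2 higher, and the median log2 fold change was -0.36. Tal1, a basic helix-loop-helix factor of red cell and megakaryocyte precursors, was 306 ± 61.7 CPM for OVX against 485 ± 90.0 CPM for Sham (SD, n = 3 each). Its log2 fold change was -0.66 (SE 0.17), and its FPKM ranges, 39.4 to 57.5 in OVX and 59.0 to 81.4 in Sham, did not overlap. Its edgeR adjusted p was 0.153. Gfi1b, a repressor of the same precursors, was at -0.59 (SE 0.19, edgeR adjusted p = 0.198) and Lyl1, a relative of Tal1, at -0.38 (SE 0.12, edgeR adjusted p = 0.18). Gata2, a factor of early progenitors and mast cells, was at -0.60 (SE 0.27), and Mafg, a small Maf partner of Nfe2, at -0.38 (SE 0.15). Gata1 was at -0.34 (SE 0.16) with an unadjusted p of 0.0577 by edgeR. On the higher side were Runx1 at 0.27 (SE 0.11) and Etv6 at 0.55 (SE 0.22), which encode factors of many blood lineages. Etv6 was at 0.36 without Sham replicate 1, and Gata2 lost the unadjusted p under 0.05 in 7 of 18 alternative fits. The count of lower factors was 2 without Sham replicate 2, and 3 without OVX replicate 2 or without OVX replicate 3, while Tal1 and Lyl1 kept an unadjusted p under 0.05 in each alternative fit.

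These factors are shared with other cells. Erythroid markers showed 2 of 10 genes lower in OVX at an unadjusted p under 0.05 (Epor and Hba-a2), none higher and none at 0. Their median log2 fold change was -0.22. Their summed FPKM ranged from 28107 to 41488 in Sham, from 26886 to 36175 in OVX and from 35369 to 41164 in OVX-AS-IV-High. Most of that sum was Hba-a2 (mean 18827 FPKM) and Hbb (14094), which were at -0.43 and 0.26 in OVX against Sham. Mast cell and basophil markers, a list that holds Gata2 itself, showed 1 of 10 lower, with sums of 219 to 266 FPKM in Sham, 216 to 273 in OVX and 156 to 230 in OVX-AS-IV-High. The part of these cells in the transcription factor values was not tested. In OVX-AS-IV-High against OVX, 0 of the 12 factors had an unadjusted p under 0.05 by edgeR, and the median log2 fold change was 0.073. Tal1 was then at 0.27 (SE 0.17) and its level, 369 ± 4.12 CPM, lay between those of the other groups.

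Of 11 surface receptor genes tested, 1 was lower in OVX than in Sham at an unadjusted p under 0.05 and none was higher, with a median of -0.058. The gene was Pear1, a platelet contact receptor, at -0.56 (SE 0.20, edgeR adjusted p = 0.22). Itgb3, the partner of Itga2b in the fibrinogen receptor and also an osteoclast integrin, was at 0.52 (SE 0.31), in the opposite direction to Itga2b. Cd9 (239 FPKM), Clec1b (55.0) and Itgb3 (29.9) were the highest of the list. Gp1bb, also listed, was not found by name among the measured genes. In OVX-AS-IV-High against OVX, where 4.42% of all genes were higher and 2.03% lower at that threshold, the collagen receptor gene Itga2 was higher at 0.45 (SE 0.15) and Pecam1, which endothelium also makes, was lower at -0.46 (SE 0.20), with edgeR adjusted p of 0.664 and 0.765. Pecam1 lost the unadjusted p under 0.05 in 9 of 18 alternative fits and was at -0.28 without OVX replicate 2. Itga2 was 2.96 to 3.25 FPKM in the treated libraries and 2.08 to 2.65 FPKM in OVX.

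Of 14 granule genes, 2 were lower in OVX than in Sham, Pdgfb at -0.46 (SE 0.17) and Nbeal2 at -0.50 (SE 0.22), which encode a mitogen of the alpha granule and a protein needed to form that granule. Nbeal2 lost the unadjusted p under 0.05 in 9 of 18 alternative fits and was at -0.29 without Sham replicate 1. Sparc (1388 FPKM), Srgn (1361) and Serpine2 (132) were the highest, and each is also made by other bone or marrow cells. In OVX-AS-IV-High against OVX none of the 14 had an unadjusted p under 0.05 by edgeR. Srgn was at 0.73 (SE 0.32, edgeR unadjusted p = 0.0513).

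Of 12 cytoskeletal genes, Was at 0.41 (SE 0.11) and Wdr1 at 0.26 (SE 0.087), which encode actin regulators of most blood cells, were higher in OVX than in Sham and none was lower. Of 14 signalling genes 1 was higher, the thrombin receptor gene F2rl2 at 0.59 (SE 0.24), and none was lower. F2rl2 was at 0.91 without Sham replicate 2 and lost the unadjusted p under 0.05 in 5 of 18 alternative fits. Neither list had a gene with an unadjusted p under 0.05 by edgeR in OVX-AS-IV-High against OVX. Among 7 tested genes of megakaryocyte growth signals, Stat5a, a transducer of thrombopoietin, was lower in OVX at -0.30 (SE 0.095). Kitlg, which encodes stem cell factor, was higher with AS-IV than with vehicle after ovariectomy, at 99.3 ± 18.1 against 70.1 ± 7.39 CPM (SD, n = 3 each) and a log2 fold change of 0.50 (SE 0.14, edgeR adjusted p = 0.652). Its FPKM ranges were 15.9 to 22.2 with AS-IV and 11.8 to 14.9 without. Thpo, which encodes thrombopoietin itself, was not found by name among the measured genes. Il6 and Il11 did not pass the filter on low counts.

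**Figure D5:**
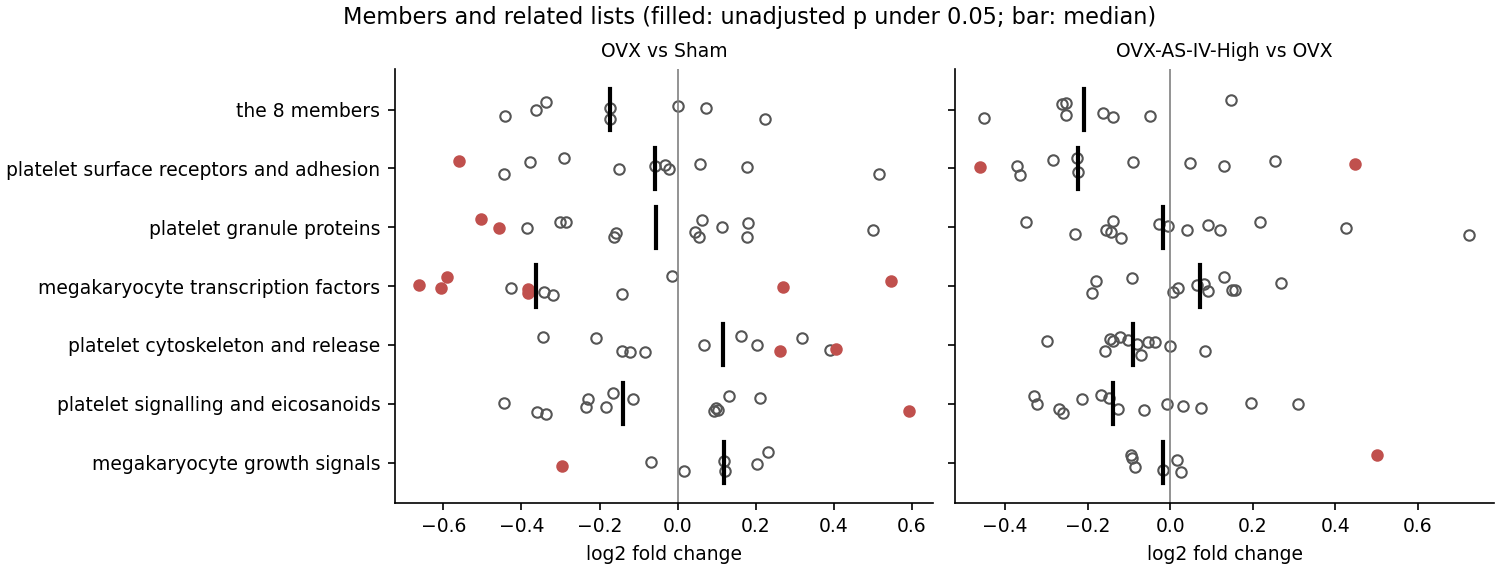
Log2 fold change (horizontal axis) of the 8 members and of the tested genes in 6 related lists, for OVX against Sham and OVX-AS-IV-High against OVX; filled points have an unadjusted edgeR p under 0.05 and the bar is the median. The transcription factors have the lowest median in OVX against Sham, -0.36, and the median of the members is -0.17.

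Markers of other cells differed in level between the libraries. Summed muscle markers (9 genes, none at 0) ranged from 871 to 4885 FPKM in Sham, from 864 to 1701 in OVX and from 301 to 2437 in OVX-AS-IV-High, and the median r of these genes with the mean of the members was 0.56. The 4 libraries with the highest muscle sums, Sham replicates 1 (4885 FPKM) and 2 (3155), OVX-AS-IV-High replicate 1 (2437) and OVX replicate 1 (1701), were also the 4 with the highest mean of the standardised members. Summed leukocyte markers (10 genes, none at 0, 6 higher at an unadjusted p under 0.05) ranged from 1165 to 1346 FPKM in Sham and from 1556 to 1651 in OVX. Endothelial markers, 3 of 10 lower, ranged from 118 to 141 FPKM in Sham and from 98.0 to 126 in OVX, and their list shares Vwf and Pecam1 with the lists above. At the same threshold all 9 B lineage markers tested, 7 of 10 adipocyte markers, 2 of 9 neutrophil markers and 1 of 10 osteoblast markers were higher in OVX and none lower. The median r with the mean of the members was 0.47 for endothelial, -0.57 for osteoblast, -0.54 for adipocyte and -0.51 for B lineage markers. For leukocyte, erythroid, mast cell and basophil, and neutrophil markers it was -0.28, 0.15, -0.15 and -0.073. The part of these cells in the members' values was not tested.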

How the data were processed

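RNA from the bone of 9 rats, 3 per group, was sequenced as poly(A)-selected libraries. The authors deposited 2 tables, 1 of read counts and 1 of FPKM per gene. Per the study's methods, clean reads were aligned with Tophat/Bowtie2 and FPKM were estimated with Bowtie2 and eXpress, and the submitters' notes name build mRatBN7.2. The deposited counts are whole numbers, and how estimated values became whole numbers is not given in the sources used here. The deposited FPKM equalled the counts rescaled within 1% for each of the 11928 genes whose count was 100 or more in every library. Reads shared by similar genes may have been split by that estimation. No member overlaps another gene in RefSeq GRCr8.

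Counts were tested with edgeR 4.0.16 (quasi-likelihood, TMM factors 0.974 to 1.03, filterByExpr, all 9 libraries, group only), two-sided, with Benjamini-Hochberg adjustment over 16874 genes. Genes were called where the unadjusted p was under 0.05 and the log2 difference exceeded 1 in size. Depth was 34874880 to 37298250 counts per library, and the common biological coefficient of variation was 0.256. The fit was tested on simulated data with known changes between OVX and Sham. Of 100 genes changed 1.5-fold, 3 were called and 64 had an unadjusted p under 0.05 by edgeR. Of 100 genes changed 3-fold, 97 were called and 98 had such a p. Of 16454 unchanged genes 216 were called. The changed genes were not picked for a spread like that of the members. Single members were also compared by exact permutation over 20 divisions. Alternatives were DESeq2 1.42.0, limma 3.58.1 on log2(FPKM + 1) and log2(FPKM + 0.1), other scalings, no filter, a replicate block and leaving out each library.

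The members and the lists were chosen with earlier results of these data known. Named beside the members were the 3 genes of highest FPKM in each list, listed genes with an unadjusted p under 0.05 in either of the first 2 comparisons, and the 5 genes most like the members. The ratios described, and the genes named for likeness beyond those 5, were chosen after their values were seen. Marker lists of other cells are given by counts and sums. Replicate numbers were checked for pairing over all genes tested. Same-numbered OVX and OVX-AS-IV-High libraries deviated from their group means together (r = 0.310, 0.158 and 0.130). The unlike-numbered OVX replicate 2 and OVX-AS-IV-High replicate 3 did so too (0.178), and no pairing is stated. Whether the numbers pair these groups is therefore not settled, and the block is given among the alternatives. Counts over the same-numbered pairs of these groups were added after the values were seen. Same-numbered values of Sham with OVX (0.200, -0.161 and 0.253) and with OVX-AS-IV-High (0.314, -0.158 and 0.435) were of mixed sign.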

Additional observations from a re-analysis of the deposited data

How the results depend on the processing

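No member was called in any setting of the 3 comparisons. For OVX against Sham, Gp5 lay just below 0 with RLE factors (-0.0046), upper-quartile factors (-0.0063), no filter (-0.0045), the replicate block (-0.00045) and DESeq2 (-0.0036). Scaling by 10 pan-leukocyte genes shifted the median of all genes to -0.38 for OVX against Sham and -0.41 for OVX-AS-IV-High against Sham. Under it Ppbp, Gp5 and Treml1 were at -0.15, -0.37 and -0.29 in OVX, Runx1 at -0.10 and Wdr1 at -0.11, the members' median was -0.54 and -0.74, and 4 and 6 members had an unadjusted p under 0.05. In the same fits 4671 and 5429 genes of the whole table had an edgeR adjusted p under 0.05, against 0 in the main fit. Relative to the shift the members' medians were lower in both, as they were with the main scaling (-0.17 and -0.33). Under that scaling 10 transcription factors were lower and 0 higher in OVX, and with limma on log2(FPKM + 1) 3 were lower.

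With 1 library left out, OVX against Sham gave 0 to 3 members with an unadjusted p under 0.05 and 387 to 1064 called genes. Values crossed 0 for Ppbp (-0.14 to 0.58), Gp5 (-0.27 to 0.33), Gp9 (-0.37 to 0.058) and Treml1 (-0.24 to 0.27). OVX-AS-IV-High against OVX gave 141 to 219 called genes and a members' median of -0.35 to 0.062. Values crossed 0 for Pf4 (-0.19 to 0.23), Itga2b (-0.31 to 0.058), Gp5 (-0.40 to 0.016), Treml1 (-0.49 to 0.065) and Tubb1 (-0.33 to 0.14). OVX-AS-IV-High against Sham gave 0 to 4 members with an unadjusted p under 0.05 and 409 to 940 called genes. Values crossed 0 for Ppbp (-0.44 to 0.13), Gp5 (-0.43 to 0.080), Treml1 (-0.42 to 0.021) and Nfe2 (-0.082 to 0.045). The separated ratio pairs numbered 11 to 17, 7 to 14 and 5 to 13 in the 3 comparisons, an alternative chosen after the data were seen, and the share of all gene pairs separated also grew, to 44.8%, 24.6% and 38.4% at most.

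The replicate block gave 1 member with an unadjusted p under 0.05 in OVX-AS-IV-High against Sham (Tubb1, log2 fold change -0.56), as did DESeq2 (Tubb1), and changed no other call of a member. All genes called in the 3 comparisons, 525, 140 and 531, became 791 and 274 in the first 2 with no filter, 74, 13 and 79 with limma on log2(FPKM + 1), 1174, 369 and 1167 with a threshold of 0.58, and 1168 and 1183 in the comparisons with Sham under leukocyte scaling. The 17 listed genes named for an unadjusted p under 0.05 kept it in 252 of 306 settings. The causes were not tested. With 3 rats a group the 95% intervals of the members other than Nfe2 reached past a 1.5-fold change in each comparison, so changes of that size and somewhat above it can be missed.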
